A study of Mus musculus with 4 samples.

Results

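Nephron progenitors that hold Six2 and Cited1 transcripts but little Wnt4 or Lhx1 were taken from single-cell RNA libraries of the developing mouse kidney. A cell was a member when it had at least 500 detected genes, at most 20% mitochondrial UMIs (unique molecular identifiers, each standing for 1 counted transcript), at least 1 Six2 UMI, at least 3 Cited1 UMIs and at most 1 UMI each of Wnt4 and Lhx1. The members were therefore chosen by their own Six2, Cited1, Wnt4 and Lhx1 counts, and the levels of these 4 genes are given only as a description. The rule found 1049 members among 16220 kept cells of the 3 kidney libraries, of which 541 came from E15.5, 295 from E17.5 and 213 from P0. A further library, of transplanted kidneys, held 0 members among 6618 kept cells, which allows a share of up to 0.0453% (taking 3 counts as the floor here and below).

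The study profiled single kidney cells with the 10x Genomics 3′ chemistry, v2, on embryonic days 15.5 and 17.5 (E15.5, E17.5) and on the day of birth (P0), and in E12.5 kidneys placed in host epididymal fat, where they stayed 12 days. Each group was 1 library, so no difference between ages has a replicate check and no p-value is given. The E15.5 and P0 kidneys came from ICR mice and the E17.5 kidney from C57BL/6 mice, and the transplant is labelled C57BL/6N. The sources differ on the strain of the transplant host. All are labelled wild type. How many animals were pooled in a library was not given in the labels. Age and strain cannot be told apart at E17.5. Intervals are 95% intervals for counting error only.

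In the fetal kidney, progenitors that surround the ureteric bud tips renew themselves and supply the cells of every nephron. Six2, a homeobox factor, holds them in the uncommitted state, and Cited1, a transcriptional co-regulator, marks the least committed of them. Wnt9b from the ureteric bud both sustains these cells and starts the commitment of some, which switch on Wnt4 and then Lhx1 as they turn into epithelium. The mouse progenitor pool is used up within days after birth.

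The 3 kidney libraries held 4158, 5551 and 10810 barcodes and 92387054, 42430540 and 99068204 UMIs at E15.5, E17.5 and P0. Members had a median of 24987 UMIs at E15.5, of 8587 at E17.5, and of 12276 at P0, so depth differed with age. Only the P0 library, although labelled wild type, contained transcripts of a tdTomato reporter, with 8181 UMIs. Transcripts of Y-linked genes numbered 6819 at E15.5, only 1 at E17.5 and only 4 at P0, and 51.9% of the E15.5 members carried one, so the sex makeup of the libraries went with age. Libraries shared between 27 and 71 cell barcodes, and the members of 2 libraries shared 1 barcode, between E17.5 and P0. Because the P0 library goes against its label, levels in the members are given at all 3 ages, and each gene list also by its counts at E17.5 over E15.5.

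Of the 4 markers listed for these cells, the rule itself required Six2 and Cited1. The others, Eya1 and Meox1, were present in the members of each library. Eya1, a transcriptional co-activator that acts upstream of Six2, stood at 130.4, 130.4 and 62.4 CPM (counts scaled to a common total of UMIs) in members at E15.5, E17.5 and P0, against 12.6, 13.5 and 11.5 CPM in all other kept cells. Meox1, a homeobox gene of the cap mesenchyme, stood at 91.2, 105 and 84.7 CPM in members, against 7.61, 10.8 and 8.25 CPM in the other cells. The marker sets of other kidney lineages summed to less in members than in the rest of each library. The 7 stromal markers summed to 234, 127 and 94.3 CPM in members, against 1123, 591 and 404 CPM in the other cells. Globin and Alas2 were the exception in size, at 3904 CPM in E15.5 members, against 12641 CPM in the other E15.5 cells, and their part in the results was not tested on its own. When globin left the total together with mitochondrial, ribosomal and stress genes, the median log2 ratio of all genes in members, P0 over E15.5, was -0.15, against -0.19. The 5 endothelial markers summed to 31.4, 95.4 and 23.6 CPM in members, against 231, 528 and 464 CPM in the other cells. Of them only Kdr was at 0, in P0 members. Of 5 leukocyte markers, C1qa, C1qb and Tyrobp were at 0 in P0 members.

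Uncommitted progenitors made up a smaller share of the kidney at each later age. They were 541 of 3565 kept cells at E15.5 (15.2%, exact Clopper-Pearson interval 14.0 to 16.4), 295 of 4563 at E17.5 (6.47%, 5.77 to 7.22) and 213 of 8092 at P0 (2.63%, 2.29 to 3.00). When each cell was thinned to 5000 UMIs, so that the 3-UMI rule was equally strict everywhere, the shares were 6.44% (217 of 3368 cells), 5.50% (189 of 3436) and 1.87% (124 of 6636). The intervals of the thinned E15.5 and E17.5 shares, 5.64 to 7.33% and 4.76 to 6.32%, overlapped, while the P0 interval, 1.56 to 2.22%, lay below both. Endothelial cells, taken as those with at least 10 UMIs of 5 endothelial markers, should lack these genes. They met the whole rule in 4 of 233 cells at E15.5, 4 of 443 in the E17.5 library and 1 of 884 at P0, at median depths of 29651, 10810.0 and 10464 UMIs.

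**Figure D1:**
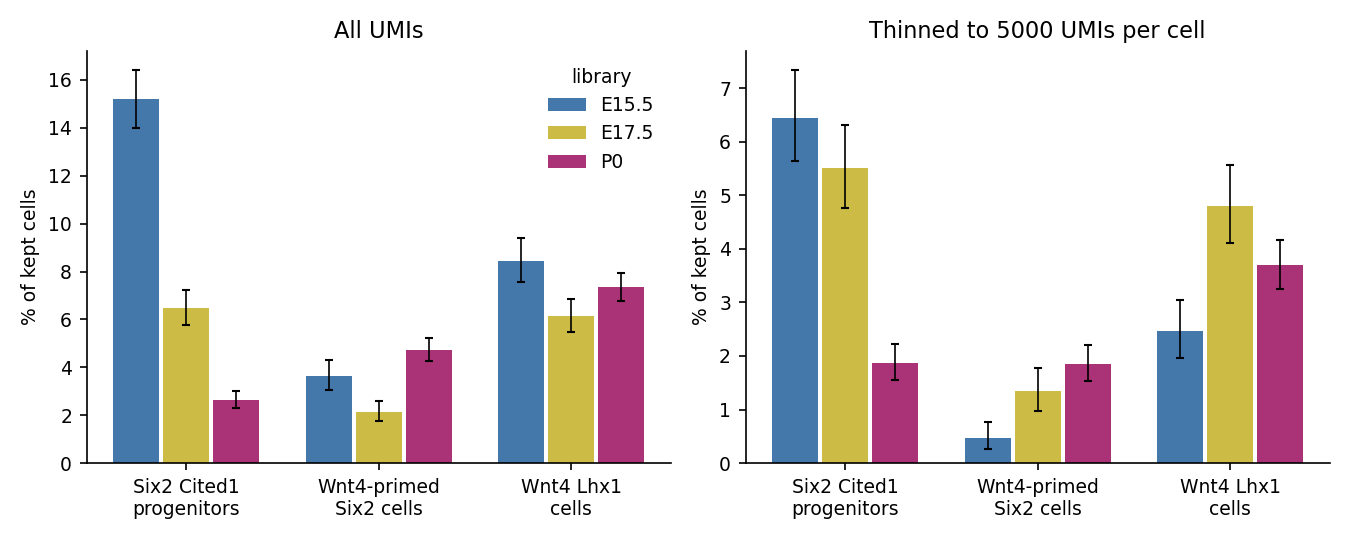
Share of kept cells (%) that were Six2 Cited1 progenitors, Wnt4-primed Six2 cells or cells with both Wnt4 and Lhx1, in 1 library per age, with exact 95% binomial intervals; left, all UMIs, right, cells thinned to 5000 UMIs. The progenitor bars are 15.2%, 6.47% and 2.63% on the left and 6.44%, 5.50% and 1.87% on the right, at E15.5, E17.5 and P0.

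The counts of Wnt4 around the rule's limit are given as a description, since Cited1 and Wnt4 chose the members. Among cells with Six2, at least 3 Cited1 UMIs and at most 1 Lhx1 UMI, those with at least 2 Wnt4 UMIs were 38 of 579 at E15.5 (6.56%), 19 of 314 at E17.5 (6.05%) and 139 of 352 at P0 (39.5%, 34.3 to 44.8). After thinning, they were 0 of 217, 1 of 190 and 16 of 140 (11.4%, 6.68 to 17.9). Of the members, which may hold at most 1 Wnt4 UMI, exactly 1 was held by 10.2% of the E15.5 members, 7.46% of the E17.5 members and 33.3% of the P0 members. After thinning the shares were 2.30%, 3.70% and 25.8%, over cells that met the rule on their thinned counts. On all their UMIs, 211 of these 217 cells met the rule at E15.5, 185 of 189 at E17.5, and only 100 of 124 at P0. Wnt4, the secreted signal that drives epithelial conversion, thus averaged 3.81, 7.47 and 23.6 CPM in members in spite of the limit. In the primed cells, defined by Six2 with at least 2 Wnt4 UMIs and at most 1 Lhx1 UMI, Cited1 was at 97.2, 129 and 251 CPM at E15.5, E17.5 and P0.

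Cited1 counts varied widely among members. A member held a median of 14 Cited1 UMIs at E15.5 (range 3 to 57), 9 at E17.5 (3 to 34) and 9 at P0 (3 to 38), and a median of 6, 2 and 2 Six2 UMIs. Just inside the threshold, 25, 33 and 21 members had exactly 3 Cited1 UMIs, and just outside it 29, 39 and 13 cells that met every other criterion had 2. In these neighbouring groups Meox1 was at 64.7, 79.2 and 50.1 CPM inside and 35.8, 64.6 and 40.9 CPM outside, and Crym at 205, 238 and 79.3 CPM inside and 125, 169 and 109 CPM outside. Eya1 was at 123, 129.9 and 62.6 CPM inside and 121, 157 and 109 CPM outside. Osr1 was at 46.2, 85.5 and 29.2 CPM inside and 48.1, 83.0 and 88.6 CPM outside. Crym, a thyroid-hormone binding protein of the cap mesenchyme, was thus lower inside than outside the limit at P0, as were Eya1 and Osr1, from only 21 and 13 cells. The limit cuts a continuous range.

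Genes of dividing cells were among those that varied most between members in the embryonic libraries. After the nuclear RNA Malat1, which was highest at each age, the 10 genes with the largest variance over mean in thinned E15.5 members included the histone gene Hist1h2ap (8.24), Hmgb2 (5.89), Top2a (4.41) and Ube2c (4.33), all of dividing cells, and these 4 were among the 10 at E17.5 too. The same histone transcript stood at 6.78 at E17.5 and 8.37 at P0, although reads of histone genes can be shared among near-identical copies. At P0 it was the only one of these 4 among the 10, which held the stress-responsive genes Hspa1a at 11.4, Jun at 7.56 and Fos at 7.03. Top2a, the topoisomerase of dividing cells, was detected in 78 of 217 thinned members at E15.5 (35.9%, 29.6 to 42.7), 64 of 189 at E17.5 (33.9%, 27.2 to 41.1) and 37 of 124 at P0 (29.8%, 22 to 38.7). Without thinning the shares were 60.1%, 41.0% and 34.3%. Endothelial cells, which also divide and were taken here with at least 5 UMIs of their markers, held Top2a in 47.6%, 48.0% and 23.3% at the thinned depth. At E17.5 Top2a stood at 365 CPM in members with 3 or 4 thinned Cited1 UMIs, 308 CPM with 5 to 8 and 73.1 CPM with 9 or more. At E15.5 the same bins read 241, 211 and 271 CPM, the last from only 14 cells, so the E17.5 gradient was not seen there. At P0 they read 168, 157 and 140.0 CPM, the last from 20 cells, in the order of E17.5 but closer together.

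Core progenitor regulators tended to be lower at P0 than at E15.5. Over all 10310 genes with at least 50 UMIs in the P0 and E15.5 members together, 547 were at least 2-fold higher at P0 (5.31%) and 1147 at least 2-fold lower (11.1%), and the median gene was 1.14-fold lower, at a log2 ratio of -0.19. Scaled to that median, the shares were 7.17% and 7.85%. Of 24 progenitor regulators that could be compared, 1 was at least 2-fold higher and 9 were at least 2-fold lower at P0, with a median log2 ratio of -0.62. E17.5 members were close to E15.5 members, with 0 of these genes at least 2-fold higher, 1 lower and a median of 0.01. The P0 median of the list was also below 0 outside the members, at -0.43 in primed cells and -0.33 in the other cells. Over all 10345 genes compared at E17.5, 4.32% were at least 2-fold higher and 4.09% lower than at E15.5. Of the 547 genes higher at P0, 428 (78.2%) had an E17.5 level between those of the other ages, as did 884 of the 1147 lower ones (77.1%). These genes were chosen for a difference between P0 and E15.5, which favours a level in between. The shares are therefore a description and no test of a trend with age.

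Among the transcription factors, Eya1 was 2.09-fold lower at P0 than at E15.5 (1.80 to 2.44), from the levels given above. Sall1, a zinc-finger factor needed for kidney outgrowth, stood at 101, 65.5 and 50.5 CPM at E15.5, E17.5 and P0. Pax2, a paired-box factor of the whole nephron lineage, stood at 174, 189.8 and 99.3 CPM. Both were highest in embryonic members and lowest at P0. Osr1, an early marker of the nephrogenic lineage, was at 71.0, 77.4 and 56.1 CPM, and Meox1 was nearly level across the ages. Meox2, its paralog, was at 52.5, 42.4 and 17.3 CPM, which made it 3.04-fold lower at P0 (2.30 to 4.11). Wt1, the Wilms tumour factor, did not follow the others: it stood at 182, 297 and 220.4 CPM, 1.21-fold higher at P0 (1.11 to 1.32). Crym stood at 305, 269 and 147 CPM, 2.08-fold lower at P0 (1.89 to 2.30). Six2 itself was at 261, 323 and 182 CPM and Cited1 at 597, 1026 and 813 CPM, values that the rule shaped. Tmem100, a membrane protein induced by BMP signalling in other tissues, was the single regulator at least 2-fold higher, at 30.5, 37.0 and 104 CPM.

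**Figure D2:**
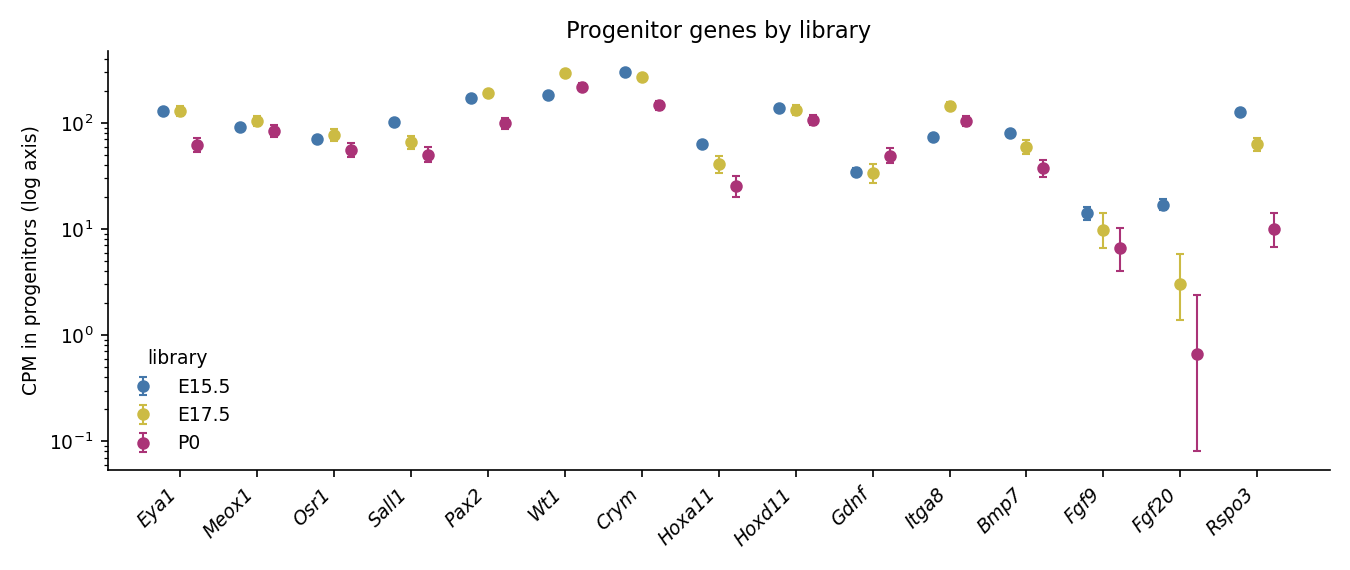
Level of 15 progenitor genes summed over the members of each library, in CPM on a log axis, with exact 95% Poisson intervals for counting error; 1 library per age. Fgf20 reads 17, 3.06 and 0.664 CPM and Rspo3 128, 63.2 and 9.96 CPM at E15.5, E17.5 and P0, while Meox1, Hoxd11 and Gdnf differ less between ages.

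The 2 secreted niche signals Rspo3 and Fgf20 were lower at each later age. Rspo3 (chr10:29452416-29535867, GRCm38), an R-spondin that amplifies Wnt signalling, stood at 128 CPM in E15.5 members, 63.2 CPM at E17.5 and 9.96 CPM at P0. This was 12.9-fold lower at P0 than at E15.5 (8.98 to 19.1), while in all other cells Rspo3 was at 11.3 CPM at P0, against 16.2 CPM at E15.5. In Wnt4-primed cells Rspo3 was also lower at each later age, at 26.4, 10.8 and 6.75 CPM, 3.91-fold lower at P0. It was detected in 37.3% of thinned E15.5 members, 22.8% of E17.5 members and 6.45% of P0 members, against 11.0%, 11.3% and 11.7% of endothelial cells. Without thinning it was detected in 71.0%, 30.5% and 12.2% of members. The thinned P0 share of members was thus not above that of endothelial cells. Whether the endothelial share stands for free RNA or for their own Rspo3 was not tested. Fgf20 (chr8:40279166-40308331), an FGF ligand that maintains the progenitors, stood at 17, 3.06 and 0.664 CPM, from 246, 9 and 2 UMIs. Its ratio at P0 was 25.6-fold lower, with a wide interval of 7.03 to 213. Fgf20 was also lower at P0 in primed cells, 3.33-fold, and in all other cells, 4.46-fold. Thinned members with an Fgf20 UMI were 10 of 217, 4 of 189 and 0 of 124, and the last count allows a share of cells with a UMI of up to 2.42%. Rspo1, the related R-spondin, did not share the decline and stood at 156, 198 and 147 CPM.

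Other ligands made by the progenitors were higher or lower with age, depending on the gene. Fgf9, which acts with Fgf20, stood at 14.1, 9.85 and 6.64 CPM at E15.5, E17.5 and P0, and Fgf8 at 26.5, 43.5 and 20.9 CPM. Fgf1, an FGF that binds all FGF receptors, was at 6.51, 40.1 and 38.5 CPM, higher at both later ages. Bmp7, which supports survival of the progenitors, stood at 79.7, 59.4 and 37.5 CPM, 2.12-fold lower at P0 (1.75 to 2.60). Gdnf, the ligand that drives ureteric branching, was not among the genes that were lower: it stood at 34.3, 33.6 and 49.1 CPM, 1.43-fold higher at P0 (1.19 to 1.73). In all other cells Gdnf was at 8.81 CPM at P0, against 19.4 CPM at E15.5. Itga8, the integrin that acts upstream of Gdnf, was at 73.4, 145 and 105 CPM. Robo2, the Slit receptor that restricts where Gdnf is made, stood at 418, 365 and 191 CPM, and its ligand Slit2 at 37.7, 18.0 and 17.3 CPM. Of the 12 genes of GDNF and branching signals compared, 0 were at least 2-fold higher and 5 lower at P0, with a median log2 ratio of -0.75. At E17.5 0 were higher and 2 lower, with a median of 0.03. Of 19 FGF pathway genes, 3 were higher and 2 lower at P0, with a median of -0.07. It turned positive, at 0.12, when ratios were scaled to the median gene. At E17.5 2 were higher and 2 lower, with a median of 0.10. The shares over all genes were 5.31% higher and 11.1% lower at P0, and 4.32% and 4.09% at E17.5. The count of FGF genes lower at P0 was near that share.

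Most Wnt components differed less with age than Rspo3. Of 22 Wnt and beta-catenin genes compared, 0 were at least 2-fold higher and 4 lower at P0, with a median log2 ratio of -0.25, near that of all genes. At E17.5 1 was higher and 2 were lower, with a median of -0.16. Ctnnb1, which encodes beta-catenin, stood at 218, 199 and 185 CPM at E15.5, E17.5 and P0, and the R-spondin receptor gene Lgr4 at 21.0, 26.5 and 29.2 CPM. Fzd2, a Wnt receptor, was at 115, 99.2 and 46.5 CPM, among the 4 that were lower. Axin2, a transcriptional readout of beta-catenin, was at 21.3, 16.0 and 11.6 CPM. Of the 6 genes listed as dependent on Wnt9b, 1 was at least 2-fold higher and 0 lower, and their median of 0.24 turned to -0.19 after thinning. At E17.5 1 was higher and 0 lower, with a median of 0.46. The higher one at P0 was Pla2g7, a lipoprotein-associated phospholipase, at 35.7, 84.6 and 128 CPM. Btbd11, another of the 6, was at 52.1, 50.9 and 32.9 CPM. Beside these lists, 5.31% of all genes were at least 2-fold higher and 11.1% lower at P0, and 4.32% and 4.09% at E17.5.

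Genes of commitment were split. Of all genes compared, 5.31% were at least 2-fold higher at P0 and 11.1% lower, and 4.32% and 4.09% at E17.5. Of 18 commitment genes compared, 3 were at least 2-fold higher at P0 and 4 at least 2-fold lower, and the median log2 ratio was 0.03. At E17.5 0 were higher and 3 lower, with a median of -0.55. The higher ones at P0 were Npy, a neuropeptide, at 1.80, 0.340 and 20.3 CPM at E15.5, E17.5 and P0, Bmp2, a BMP ligand, at 2.35, 1.36 and 14.3 CPM, and the cadherin gene Cdh6 at 9, 7.47 and 18.6 CPM. Pax8, an early gene of the committed lineage, was at 15.9, 31.6 and 28.9 CPM. Ccnd1, which encodes cyclin D1, was among the lower ones at 66.9, 35.7 and 26.9 CPM. Npy was found in 7 of 124 thinned P0 members (5.65%) and in 1 of 217 at E15.5, against 2.99% and 0.952% of endothelial cells, and the interval of the P0 share, 2.30 to 11.3%, held the endothelial value.

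Of 23 BMP and TGF-beta genes compared, 7 were at least 2-fold higher and 1 lower at P0, and at E17.5 6 were higher and 0 lower, with median log2 ratios of 0.30 at P0 and 0.29 at E17.5. The inhibitors of DNA binding, known as transcriptional readouts of BMP signalling, were among the higher genes. Id2 stood at 190.1, 477 and 973 CPM at E15.5, E17.5 and P0, and Id4 at 11.6, 45.2 and 123 CPM. Id1 stood at 93.7, 830.3 and 434 CPM and Id3 at 394, 1538 and 1150 CPM, both highest at E17.5. The feedback inhibitor Smad6 was at 12.7, 12.6 and 65.4 CPM and Smad7 at 26.9, 103 and 87.0 CPM. The receptors and signal-carrying SMADs stayed closer, with Bmpr1a at 49.1, 59.8 and 44.2 CPM and Smad1 at 21.8, 29.2 and 26.9 CPM. Outside the members Id2 was also higher at P0, at 1009 CPM, against 339 CPM at E15.5. Beside this list, 5.31% of all genes were at least 2-fold higher and 11.1% lower at P0, and 4.32% and 4.09% at E17.5.

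In the Notch, FGF and Hippo pathways, some readouts were higher at both later ages and others were not. Hey1, a Notch target, stood at 18.3, 43.1 and 113 CPM at E15.5, E17.5 and P0, 6.15-fold higher at P0 (5.22 to 7.25), and the receptor gene Notch1 at 14.9, 20.7 and 31.5 CPM. Notch3, another receptor gene, was at 11.8, 9.17 and 6.64 CPM. Of 12 Notch pathway genes compared, 3 were at least 2-fold higher and 0 lower at P0, with a median log2 ratio of 0.30, and at E17.5 1 was higher and 0 lower, with a median of -0.04. Spry1, an FGF-induced inhibitor of receptor signalling, was at 27.4, 75.4 and 146 CPM, whereas Etv5, another FGF-induced gene, was at 47.0, 23.1 and 27.6 CPM. The YAP targets Ctgf and Cyr61 stood at 0.762, 2.38 and 14.6 CPM and at 47.2, 304 and 226 CPM. They were among 4 of 18 Hippo pathway genes at least 2-fold higher at P0, with 1 lower and a median of -0.15, which became 0.04 when scaled to the median gene. At E17.5 2 were higher and 0 lower, with a median of 0.08. Yap1 itself was at 43.1, 45.8 and 37.8 CPM. In the other cells of the libraries Hey1 was at 99.6 CPM at P0, against 36.8 CPM at E15.5, and Ctgf at 80.5 CPM, against 5.32 CPM. The shares over all genes in members were 5.31% higher and 11.1% lower at P0, and 4.32% and 4.09% at E17.5.

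The medians of Hox genes and fetal growth genes lay below that of all genes at P0. Of 28 Hox genes compared, 0 were at least 2-fold higher and 7 lower, with a median log2 ratio of -0.47, and at E17.5 0 were higher and 2 lower, with a median of -0.19. In primed cells the Hox median at P0 was -0.37, and in the other cells -0.49. Hoxa11, which with Hoxd11 patterns the metanephros, stood at 63.6, 41.1 and 25.2 CPM at E15.5, E17.5 and P0, while Hoxd11 stood at 139, 133 and 107 CPM. Hoxb8 had the lowest ratio of the group, 4.38-fold lower at P0 (3.49 to 5.57), at 113, 39.4 and 25.9 CPM. Hoxc10 went slightly the other way, at 160.5, 202 and 189 CPM. Of 17 fetal growth genes, 0 were higher and 3 lower by this measure, beside 11.1% of all genes lower, with a median of -0.55. At E17.5 0 were higher and 5 lower, with a median of -0.51. Their P0 median was lower outside the members, at -0.88 in primed cells and -0.77 in the other cells. Hmga2, a chromatin protein of fetal stem cells that let-7 represses, stood at 271, 183 and 123 CPM, and the IGF2 mRNA-binding gene Igf2bp1 at 117, 43.5 and 58.4 CPM. Lin28b, a let-7 inhibitor, was too rare to compare, with 8, 1 and 0 UMIs.

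Cdkn1c and Cdkn1a, which encode inhibitors of cyclin-dependent kinases, went in opposite directions. Cdkn1c (p57, imprinted, chr7:143458339-143461050) stood at 487, 196 and 90.3 CPM at E15.5, E17.5 and P0, 5.39-fold lower at P0 (4.78 to 6.11). Cdkn1a (p21), a p53 target, stood at 6.02, 21.1 and 65.4 CPM, 10.9-fold higher (8.40 to 14.1), and Cdkn1b (p27) at 16.1, 41.1 and 36.9 CPM. Cdkn1a was found in 15.3% of thinned P0 members, against 1.84% at E15.5, and in 64.0% and 1.43% of endothelial cells of those libraries, so the difference was larger in endothelium. Of the 10 inhibitors and D cyclins compared, 2 were at least 2-fold higher and 3 lower, with a median of -0.49, and at E17.5 2 were higher and 1 lower, with a median of 0.14. Of 22 genes of G2 and M phase, 0 were at least 2-fold higher and 3 lower at P0 than at E15.5, a share near the 11.1% of all genes lower, with a median log2 ratio of -0.80. At E17.5 0 were higher and 0 lower, with a median of 0.25. Top2a stood at 295, 353 and 178 CPM and Mki67 at 116, 164 and 65.4 CPM. After thinning, the G2 and M median was -0.33 and Tacc3, one of its spindle genes, turned positive. Of 22 S phase genes, 0 were higher and 3 lower, again near the share of all genes, with a median of -0.49, and at E17.5 0 were higher and 2 lower, with a median of -0.05. Ccne2 was the lowest of them at 27.4, 12.2 and 5.64 CPM. Across all other cells of the libraries the G2 and M median at P0 was -0.78 and the S phase median -0.66, and in primed cells they were -0.43 and -0.39.

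**Figure D3:**
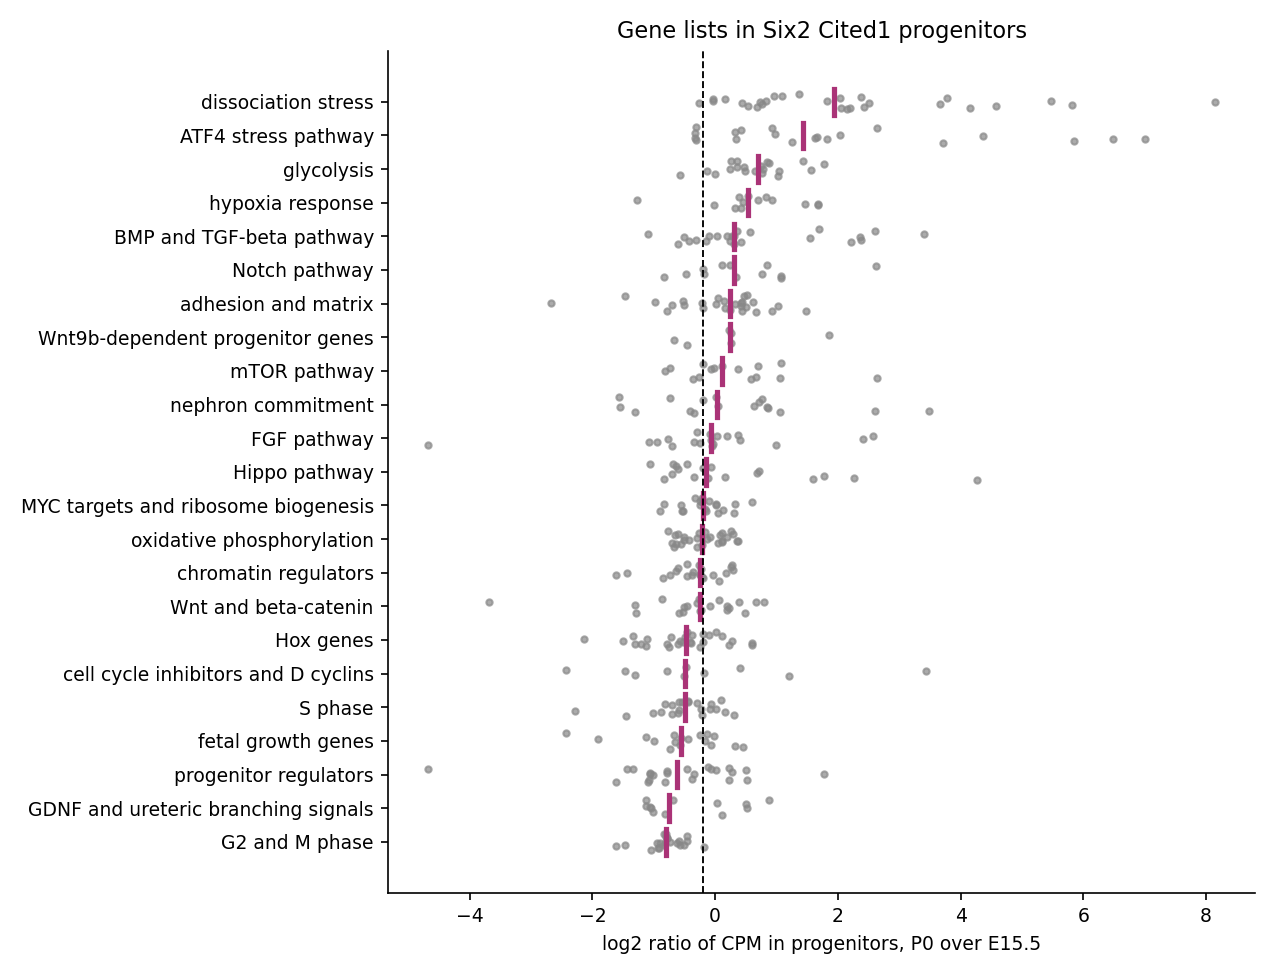
Log2 ratio of CPM in the members, P0 over E15.5, for each gene of 23 lists with at least 50 UMIs (grey points; genes with 0 UMIs at one age are left out of the points) and the median of each list (thick line), beside the median of all 10310 genes compared (dashed line, -0.19). Dissociation stress and ATF4 lists lie highest, at medians of 1.93 and 1.44, and G2 and M phase lowest, at -0.80.

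Several genes of the ATF4 stress pathway had high ratios at P0. Chac1 (chr2:119351229-119354381), a glutathione-degrading enzyme, stood at 0.485, 0.340 and 43.2 CPM at E15.5, E17.5 and P0, and Trib3, a pseudokinase, at 0.208, 0 and 26.6 CPM. Both are classic targets of ATF4, the transcription factor that answers amino acid shortage and protein-folding stress. Ddit3, which encodes CHOP, stood at 11.9, 40.1 and 245 CPM, and Atf4 itself at 132, 163 and 466 CPM. Of 20 ATF4 pathway genes compared, 11 were at least 2-fold higher at P0 and 0 lower, with a median log2 ratio of 1.44, against 5 higher, 1 lower and a median of 0.29 at E17.5. Sesn2, an inhibitor of mTOR signalling, stood at 6.23, 7.47 and 38.5 CPM, and Gdf15, a stress hormone, at 0.277, 2.72 and 15.9 CPM. The biosynthetic enzymes of the list did not all follow, since Phgdh was at 294, 454 and 372 CPM and Psat1 at 57.3, 42.1 and 45.8 CPM. The pathway was also higher outside the members, with a median of 0.59 over the other cells and of 0.98 in Wnt4-primed cells. Chac1 was found in 27 of 124 thinned P0 members (21.8%, 14.9 to 30.1), against 0 of 217 at E15.5, which allows a share of cells with a UMI of up to 1.38%, and 1 of 189 at E17.5, while 4.29% of P0 endothelial cells held it. Without thinning the shares of members were 35.7% at P0, against 1.29% at E15.5 and 0.339% at E17.5. Ddit3 was found in 64.5% of thinned P0 members, against 23.7% of P0 endothelial cells. The shares over all genes in members were 5.31% higher and 11.1% lower at P0, and 4.32% and 4.09% at E17.5.

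Some promoters of the ATF4 list carry the core of the C/EBP-ATF response element, written TGATGNAA. ATF4 recognises this element with a C/EBP partner. The element was searched on both strands of the 250 bases before each RefSeq gene start in GRCm38.p6, and 3.45% of 32851 such windows held it. Counted by gene, 3.91% of 27025 genes held it in a window, and 2.21% of the 8282 among them compared in members. Of the 21 ATF4 pathway genes with a window, 6 held it. The stretches below come from 2 stress genes at least 2-fold higher at P0 (Chac1 and Atf3, the second from the dissociation stress list) and from 2 amino acid synthesis genes that were not (Asns and Pycr1). They are shown 5′ to 3′ on the gene's own strand with the element in capitals, and where it lies on the opposite strand the capitals read as its reverse complement. They span chr2:119351013-119351092 (Chac1, plus strand), chr1:191183400-191183479 (Atf3, minus strand), chr6:7693210-7693268 (Asns, minus strand) and chr11:120643808-120643887 (Pycr1, minus strand).
Chac1: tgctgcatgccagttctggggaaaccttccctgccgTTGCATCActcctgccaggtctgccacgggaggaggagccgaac
Atf3: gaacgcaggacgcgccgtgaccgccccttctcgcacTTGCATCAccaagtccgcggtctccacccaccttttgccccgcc
Asns: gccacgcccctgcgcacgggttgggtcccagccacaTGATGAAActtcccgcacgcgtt
Pycr1: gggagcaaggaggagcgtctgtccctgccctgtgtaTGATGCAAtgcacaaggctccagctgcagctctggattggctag
The element began 193, 110, 23 and 103 bases before the start of Chac1, Atf3, Asns and Pycr1. Asns stood at 8.93, 9.51 and 16.9 CPM at E15.5, E17.5 and P0 and Pycr1 at 11.1, 11.5 and 8.96 CPM. Slc7a11, Nupr1 and Vldlr also held the element, and the first of these was too rare to compare, at 14 UMIs in P0 members and 6 in E15.5 members, as was Nupr1, at 15 and 8 UMIs. Vldlr was 1.98-fold higher at P0. Of the ATF4 list genes compared, only Chac1 both held the element and was at least 2-fold higher at P0. No match to these letters was found in the windows of Trib3, Ddit3 and Sesn2. A match describes a sequence, not a site in use.

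Immediate early and heat-shock genes, which tissue dissociation is known to induce, were higher at both later ages. Of 28 compared, 17 were at least 2-fold higher at P0 and 0 lower, with a median log2 ratio of 1.93. At E17.5 21 were higher and 0 lower, with a median of 2.02. Beside this list, 5.31% of all genes were higher and 11.1% lower at P0, and 4.32% and 4.09% at E17.5. Hspa1a, an inducible HSP70 whose reads may be shared with Hspa1b, stood at 0.623, 56.4 and 177 CPM at E15.5, E17.5 and P0. Atf3 stood at 3.46, 43.8 and 194 CPM. Fos, in contrast, was highest at E17.5, at 261, 2207 and 417 CPM, as was Socs3 at 35.2, 214 and 34.2 CPM. The summed share of this list was 0.593%, 1.40% and 1.28% of member UMIs, and 0.621%, 1.37% and 1.95% in the other cells. Hspa1a stood at 648 CPM in the other P0 cells, against 3.32 CPM in the other E15.5 cells, so it was not confined to progenitors. Its level per cell was uneven, with a UMI in 24.2% of thinned P0 members and 66.3% of P0 endothelial cells. Whether handling of the tissue differed between libraries is not given in the labels, and its part in the ATF4 result was not tested.

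Among the 10 genes highest at P0 by the interval bound nearest to equality, Trib3 and Chac1 were on the ATF4 list and Hspa1a, Atf3 and Gadd45b on the dissociation list. Maff, a small Maf factor, stood at 6.72, 39.1 and 259 CPM at E15.5, E17.5 and P0, and Gadd45b, a growth-arrest gene, at 2.77, 19.7 and 123 CPM. F3, which encodes tissue factor, stood at 4.29, 11.2 and 181 CPM in members and at 197 CPM in the other P0 cells. Sstr2, a somatostatin receptor, had 0, 0 and 58 UMIs and was at least 92.7-fold higher at P0 than the level 3 UMIs would give at E15.5. At 19.3 CPM in P0 members and 3.43 CPM in the other P0 cells, Sstr2 was higher in the members, and primed cells held 16.7 CPM at P0. tdTomato completed the 10, with 87 UMIs in 68 of the 213 P0 members (31.9%) and a level of 28.9 CPM, against 86.4 CPM in the other P0 cells.

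The 10 lowest at P0 included Rspo3, Fgf20 and Cdkn1c. Nefl, a neurofilament subunit, stood at 16.5, 2.38 and 0.332 CPM at E15.5, E17.5 and P0, and Dync1i1, a dynein intermediate chain, at 14.8, 6.79 and 0.996 CPM. In the other E15.5 cells Nefl was at 0.893 CPM and Dync1i1 at 0.841 CPM, both far below the members of that age. Nrxn3, a neurexin, had 161, 7 and 0 UMIs and was at least 11.2-fold lower at P0, taking 3 UMIs as the floor there. The iron exporter gene Slc40a1 was at 15.2, 6.11 and 0.332 CPM and the metallothionein gene Mt2 at 46.2, 2.04 and 6.31 CPM. The log2 ratio of Mt2, P0 over E15.5, was -2.87, and -1.28 in members with Wnt4 and Lhx1 at 0 UMIs. Tpm3-rs7, a sequence related to Tpm3 whose reads may be shared with it, stood at 107, 4.08 and 0.664 CPM in members and was as uneven outside them, at 2.49 CPM in the other P0 cells and 128 CPM in the other E15.5 cells.

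Metabolic genes separated glycolysis from respiration. Of 20 glycolytic genes compared, 5 were at least 2-fold higher and 0 lower at P0, with a median log2 ratio of 0.70, and at E17.5 2 were higher and 0 lower, with a median of 0.57. Ldha, which makes lactate, stood at 437, 889 and 886 CPM at E15.5, E17.5 and P0, and the glucose transporter gene Slc2a1 at 16.3, 18.3 and 47.8 CPM. Gapdh was level at 1574, 1439.9 and 1577 CPM. Of 27 genes of oxidative phosphorylation, 0 passed a 2-fold difference in either direction, and their median of -0.21 was near that of all genes. At E17.5 again 0 passed, with a median of 0.06. Cox4i1 was at 1073, 1414 and 1396 CPM and Ndufa4 at 671, 635 and 429 CPM. Of 13 hypoxia-response genes, 3 were higher and 1 lower, with a median of 0.53, and at E17.5 2 were higher and 0 lower, with a median of 0.70. Vegfa stood at 23.0, 40.1 and 40.8 CPM. The glycolytic median was 1.12 over the other cells of the libraries, above that of the members. Beside these lists, 5.31% of all genes were at least 2-fold higher and 11.1% lower at P0, and 4.32% and 4.09% at E17.5.

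In the remaining lists at most 3 genes passed 2-fold in either direction at P0. Over all genes compared, 5.31% were at least 2-fold higher at P0 and 11.1% lower. Of 20 MYC targets and ribosome biogenesis genes, 0 differed by 2-fold in either direction, with a median log2 ratio of -0.19, and at E17.5 0 were higher and 1 lower. Myc itself stood at 33.4, 22.8 and 50.5 CPM at E15.5, E17.5 and P0. Of 15 mTOR pathway genes, 3 were at least 2-fold higher and 0 lower, with a median of 0.12, and these were Rictor, Sesn2 and Ddit4, chosen for mention after their values were seen. At E17.5 0 mTOR genes were higher and 0 lower, with a median of 0.22. Of 27 adhesion and matrix genes, 2 were higher and 2 lower, with a median of 0.25, and at E17.5 0 were higher and 3 lower, with a median of 0.21. The matrix protein gene Sparc stood at 437, 741 and 891 CPM and the laminin chain gene Lamc1 at 32.1, 40.1 and 89.3 CPM, while Fn1, fibronectin, stood at 32.1, 13.2 and 11.6 CPM. Of 22 chromatin regulators, 0 were higher and 2 lower, near the share of all genes lower, with a median of -0.25. At E17.5 0 were higher and 0 lower, with a median of -0.07. The lower ones at P0 were Tet1, a DNA demethylation enzyme, at 27.6, 28.2 and 8.96 CPM, and Phf19, a Polycomb partner, at 26.2, 26.5 and 9.63 CPM. Ezh2, the Polycomb methyltransferase, was at 191, 142 and 115 CPM.

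Set against Wnt4-primed Six2 cells of the same library, the members had a small set of genes at higher levels at all ages. Primed cells numbered 130, 98 and 382 at E15.5, E17.5 and P0. Of 7241 genes with at least 50 UMIs in every library, 25 (0.345%) were at least 2-fold higher in members in all 3 libraries and 36 (0.497%) at least 2-fold lower. Since Wnt4 defines the border between these classes, the counts and levels describe them and carry no test.

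Meox1 was 7.60-fold, 3.17-fold and 2.86-fold higher in members than in primed cells, taking E15.5, E17.5 and P0 in order. The P0 value depended on depth: its log2 ratio was 1.52 on all UMIs and 2.64 after thinning. Ajap1, which encodes a junction-associated membrane protein, stood at 24.8, 26.8 and 15.6 CPM in members, against 5.41, 3.32 and 2.25 CPM in primed cells. Pgf, a VEGF-family ligand, stood at 41.0, 28.2 and 12.3 CPM in members, against 7.06, 5.82 and 3.38 CPM in primed cells. The others with the largest smallest ratio were Ocm, a calcium-binding protein gene, Ppp1r14a, a myosin phosphatase inhibitor gene, Nell1, Pnmt and Il33. Il33, an alarmin cytokine, was at 21.4, 116 and 102 CPM in members, against 7.30, 20.8 and 38.4 CPM in primed cells, and so was higher at both later ages within the members. Pnmt, the enzyme that makes adrenaline, was at 13.5, 34.0 and 47.5 CPM in members. Crym, Gfra1, Robo2, Btbd11 and Fgf1 were also among the 25. Gfra1, the GDNF co-receptor, stood at 69.9, 77.8 and 43.5 CPM in members.

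The genes lower in members than in primed cells included 2 of the commitment list, Ccnd1 and Cdh6. Ccnd1 stood at 66.9, 35.7 and 26.9 CPM in members, against 226, 132 and 108 CPM in primed cells. Frzb, a secreted Wnt antagonist, stood at 5.95, 12.6 and 10.3 CPM in members, against 31.1, 78.1 and 43.6 CPM in primed cells. C1qtnf12, a secreted protein gene, stood at 71.7, 85.6 and 123 CPM in members, against 338, 369 and 379 CPM in primed cells. Tenm4, a teneurin, was 11.2-fold and 11.5-fold lower in members at E15.5 and E17.5 and 4.69-fold lower at P0. Pmp22, Scube3, Fam107a and Mpped2 completed the 8 with the lowest ratios. Mpped2 had log2 ratios of -2.04, -2.46 and -1.77, and after thinning its P0 ratio was -0.01. Bmp4 and Fn1 were among the 36 as well.

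**Figure D4:**
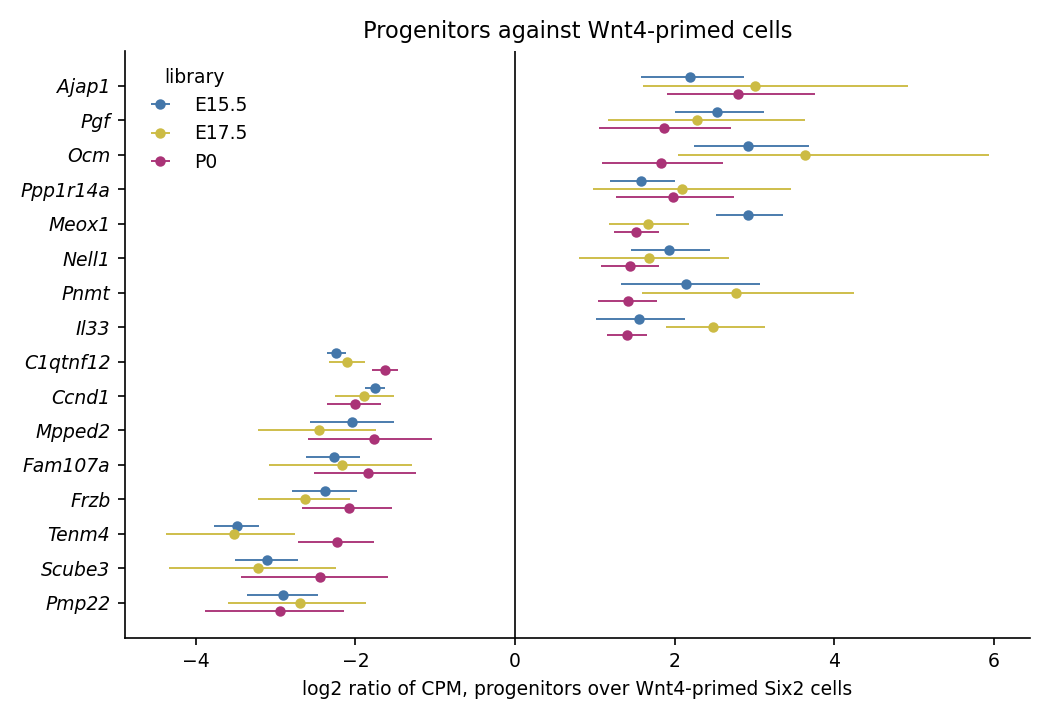
Log2 ratio of CPM, members over Wnt4-primed Six2 cells of the same library, for the 8 genes higher and the 8 lower by the smallest of 3 library ratios, with exact 95% counting intervals; 1 library per age. That all 16 genes keep their side at each age was fixed by this choice. Meox1 is 7.60-fold higher at E15.5 and 2.86-fold at P0, on all UMIs. After thinning its P0 log2 ratio was 2.64, against 1.52.

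Several regulators separated the classes less at P0 than in the embryo. Osr1 stood at 71.0, 77.4 and 56.1 CPM in members and at 30.6, 41.5 and 52.3 CPM in primed cells, so that the log2 ratio of members over primed cells was 1.21, 0.90 and 0.10 at E15.5, E17.5 and P0. Eya1 had ratios of 0.82, 0.40 and -0.10. For Rspo3 they were 2.28, 2.55 and 0.56. Over the 22 progenitor regulators compared between the classes, the median log2 ratio was 0.64, 0.36 and 0.16. Other genes kept their distance: Crym stood at 1.51, 1.69 and 1.31, and Bmp7 at 0.86, 0.99 and 0.92. With more cells holding both Cited1 and Wnt4 at P0, the level of Cited1 in the primed class was also highest there, as given above, and its part in these ratios was not tested.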

How the data were processed

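The authors deposited count matrices, in UMIs for each gene in every barcode that had been called a cell. Per the submitters' processing notes, alignment was to GRCm38 and counting by Cell Ranger 3.1.0, whereas the file headers name version 3.0.2 in the E15.5 and P0 matrices, and 3.1.0 in those of E17.5 and of the transplant. How strand and reads shared by similar genes were treated is not given in the sources used here. A joined matrix was not used.

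Barcodes with under 500 genes (465, 696 and 1980 at E15.5, E17.5 and P0) or over 20% mitochondrial UMIs (128, 292 and 738) were left out. Doublets were kept, since Scrublet (scanpy 1.11.5) was run as an alternative only. The 102, 167 and 524 cells with the highest scores were marked. Their number was set beforehand, at 0.8% per 1000 kept cells, and is no count of detected doublets. UMIs were summed over the members of a library and given as CPM of all their UMIs (14445020, 2944647 and 3012200). Ratios carry exact conditional binomial 95% intervals (scipy 1.17.1). They were checked on counts simulated with counting error alone, as the intervals assume. That check covers the calculation and not the spread between cells or animals. A ratio was compared when both libraries together held at least 50 UMIs, and the rule genes were left out of counts of genes. Cells with under 5000 UMIs were left out of thinned values. A gene with 0 UMIs was set at 3 UMIs over its library's members for a bound. Genes named by rule were, leaving out mitochondrial, ribosomal protein, globin and Y-linked genes, the 10 highest and 10 lowest by the interval bound nearest 1, the 2 highest and 2 lowest of each list, and the 8 highest and 8 lowest against primed cells. Other genes named are list genes given as context. Gene names matched the GENCODE annotation for 20661 of 20672 features. The members and lists were chosen with earlier results of these data known. Sequences are RefSeq promoter windows. Of the genes named by the rule, 1 is not reported here.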

Additional observations from a re-analysis of the deposited data

Results flagged for a closer look

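Osr1 differed in direction between the classes across ages: its log2 ratio, P0 over E15.5, was -0.34 in the members and 0.77 in Wnt4-primed cells. The difference was not tested, since each class is a single library per age. The tdTomato feature, a reporter that the wild-type labels do not name, held 87 UMIs in P0 members and 0 in members of the other kidney libraries.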

How the results depend on the processing

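The share of members at E15.5, E17.5 and P0 depended on the thresholds. With Cited1 at 2 UMIs or more the E17.5 share was 7.32%. With 5 UMIs or more the shares were 13.5%, 5.35% and 2.15%. With Wnt4 and Lhx1 at 0 the E15.5 share was 12.9% and the P0 share 1.68%, and thinning gave 6.44%, 5.50% and 1.87%. Leaving out cells with 5 UMIs of another lineage left 3 E15.5 members (0.0842%), too few for ratios. The same without erythroid markers, chosen after seeing the data, left 6.82%, with 275 genes lower at E17.5 and 23 lower against primed cells. Leaving out E15.5 members with Y-linked UMIs, also chosen then, gave 268 lower at E17.5.

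Thinning reduced the genes compared at P0 to 4172, with 201 higher and 310 lower at P0, 183 higher and 111 lower at E17.5, and 9 lower against primed cells. Of the 39 named ratios against primed cells it left, 21 moved beyond their interval. Of the named ratios, P0 over E15.5, 37 moved, 3 turned and 50 stayed. Of the list medians, 9 moved and 14 stayed. The dissociation stress median went from 1.93 to 0.92. The commitment median of 0.03 went to -0.25, and to 0.85 when E15.5 members with Y-linked UMIs were left out. A minimum of 20 UMIs gave 640 lower at E17.5 and 80 lower against primed cells, and a minimum of 200 gave 296 and 540 at P0, 195 and 150 at E17.5, and 7 and 9 against primed cells. Among log2 ratios, P0 over E15.5, whose interval left out 0, those that turned were Meg3 at -0.01 (Cited1 at 2 UMIs), Slc12a2 at -0.02, Tacc3 at 0.34 and Suz12 at -0.19 (thinned), and Pgam1 at 0.06 (scaled to the median gene). The cause was not tested beyond fewer genes and cells. No paired analysis was possible because each group is 1 library. Depth limits rare transcripts most at E17.5 and P0.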

Other observations

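Six2 cells with fewer than 3 Cited1 UMIs and at most 1 Wnt4 and 1 Lhx1 UMI numbered 184, 148 and 134, in the order of the 3 ages. In the transplant, all barcodes together held 3 Six2 UMIs, while Cited1 had 419. Among thinned members grouped by Cited1, a gene of the rule, other markers went different ways. For Crym, members with 3 or 4, with 5 to 8 and with 9 or more Cited1 UMIs had 312, 382 and 414 CPM at E15.5, 298, 324 and 342 CPM at E17.5, and 109, 183 and 230.0 CPM at P0. The last bin held 14, 52 and 20 cells. Others were in the opposite order at 1 age, with Six2 at 444, 395 and 354 CPM at E17.5, Eya1 at 131, 113 and 85.7 CPM at E15.5, and Meox1 at 109, 106 and 70.0 CPM and Osr1 at 73.7, 63.8 and 50 CPM at P0. Further genes at least 2-fold higher in members than in primed cells in all 3 libraries included Traf1, a signalling adaptor of TNF receptors, Dcx, a microtubule-binding protein, and Scx, a transcription factor of tendon, named after their values were seen.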
